A study of Phaseolus vulgaris with 36 samples.

Results

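Filling pods (stage R8) of common bean, Phaseolus vulgaris, were compared between the accession MIDAS and the accession G12873. The comparison rests on 6 of the 36 libraries in the series, the 3 that the labels place in each accession at that stage, and differences are given as MIDAS minus G12873. MIDAS is labelled domesticated with indehiscent pods, which stay closed at maturity, and G12873 is labelled wild-type with fully dehiscent pods, which split open. Libraries of the same accessions from newly emerged pods (R7) and mature pods (R9), and those of ICA Bunsi and SXB405, both labelled domesticated with middle dehiscence, serve as points of reference. All plants were untreated, and each group of accession and stage holds 3 libraries. Each side of the comparison is 1 accession, so accession, domestication and dehiscence cannot be told apart. The labels do not tell whether the libraries within a group were taken from different plants, so p-values reflect only how far the libraries themselves vary, and that variation may be technical. The labels name the tissue as pod without saying whether seeds were left inside, and this could not be checked against marker genes because the deposited identifiers carry no gene names. In bulk pods, fewer cells of a type and less RNA per cell cannot be told apart.

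Legume pods open along sutures where lignified cells border a separation layer, and a lignified fibre layer in the valves builds up the tension that twists the valves as they dry. Loss or reduction of this secondary wall thickening keeps the pod closed, a trait selected during bean domestication and carried furthest in snap beans. In Arabidopsis the transcription factor INDEHISCENT patterns the opening margin of the fruit and MYB26 promotes secondary wall thickening in the anther, while in soybean the dirigent-like protein Pdh1 promotes the twisting of the pod wall. During filling the pod passes from growth of its wall to the supply of developing seeds, so a pod sample at this stage can also hold storage and maturation programmes.

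Estimated counts covered 27433 genes, of which 20966 passed the filter on low counts and were tested. Totals of the 6 libraries lay between 6712192 and 12012782. Across libraries 9 abundant genes, with Phvul.L001990 and Phvul.003G000408 at their head, varied together and took 2.96%, 53.42% and 2.94% of the counts in MIDAS replicates 1, 2 and 3, against 22.57%, 4.58% and 31.18% in G12873. MIDAS replicate 2 therefore stood apart, with 3126753 counts left for all other genes. It is 1 of 8 libraries in the series in which these genes took over 50%. Across genes, log2 CPM (counts scaled to a common depth with TMM library sizes) correlated between replicates at 0.969 to 0.987 in MIDAS and 0.956 to 0.965 in G12873, as a description.

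The accessions differed in a large share of the tested genes at R8, in both directions. Calls required a difference of at least 2-fold and an adjusted p under 0.05 in edgeR's quasi-likelihood test, with Benjamini-Hochberg adjustment. Of the 20966 genes, 3273 (15.6%) were higher and 2773 (13.2%) lower in MIDAS, 6046 (28.8%) in all. Without MIDAS replicate 2 the test called 3286 higher and 2526 lower genes, and 5488 of these calls were among those reported. The 3 libraries of MIDAS and the 3 of G12873 did not overlap for 5814 of the called genes, where 57.5% of all tested genes had groups that did not overlap.

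The median log2 difference was 2.26 among the higher genes and -2.10 among the lower genes, against -0.05 over all genes tested. Some of these folds are set against zero, because 143 higher genes had no count in any G12873 library and 167 lower genes had none in any MIDAS library. With those genes placed at their bound of 3 counts over the group, the medians were 2.24 and -2.07. Among genes with counts in both accessions, 1753 were at least 4-fold higher and 1303 at least 4-fold lower. Differences of at least 16-fold were found for 448 higher and 366 lower genes, and of at least 64-fold for 84 and 62. Calls were most frequent among genes with a mean between 1 and 10 CPM (37.1% of 7767) and least frequent between 10 and 100 CPM (20.7% of 9565). Among the 1110 genes from 100 CPM upwards, 18.7% were higher and 11.3% lower in MIDAS.

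**Figure D1:**
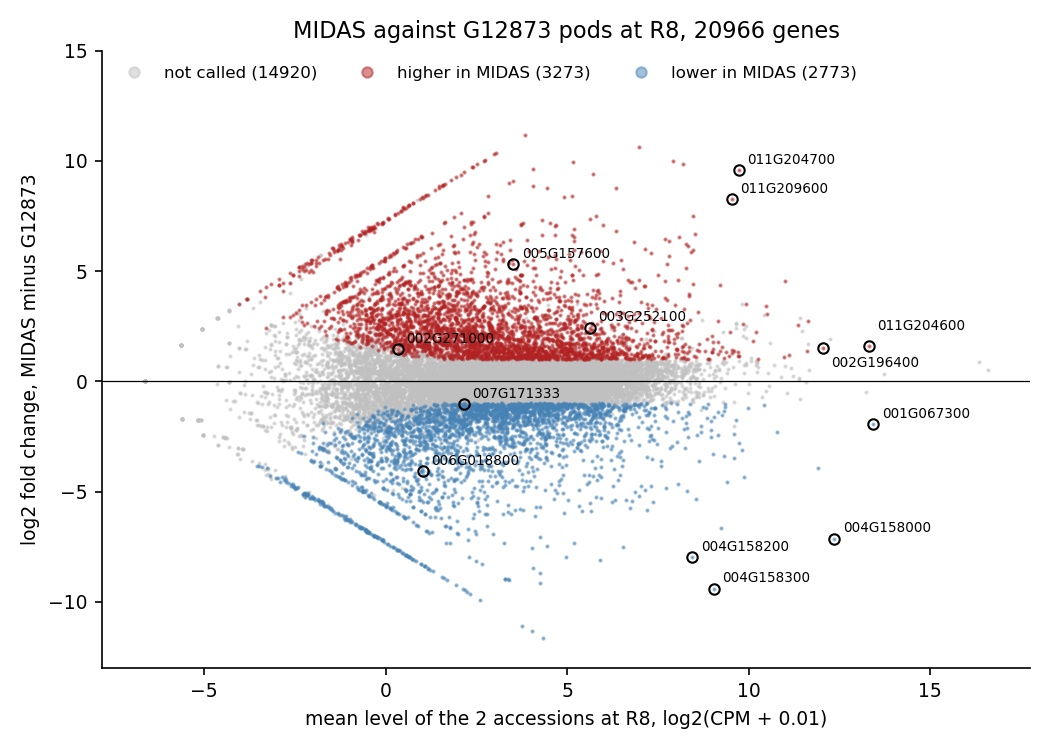
Each point is 1 of the 20966 tested genes, with its mean level over both accessions at R8 as log2(CPM + 0.01) on the horizontal axis and its log2 difference, MIDAS minus G12873, on the vertical axis. The 3273 higher (red) and 2773 lower (blue) genes spread over the whole range of levels, and circles mark genes described in the text, written without the prefix Phvul; the slanted edges at the left are genes with no count in 1 accession.

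How much of the transcript pool the called genes held is given as their summed share of TPM, an abundance scaled for transcript length. The genes were chosen on these same libraries, which largely fixes the direction, so the shares are descriptions of size. Lower genes held 4.37%, 1.03% and 3.98% of TPM in the MIDAS libraries and 15.7%, 20.7% and 10.7% in those of G12873. Higher genes held 27.7%, 5.94% and 28.5% in MIDAS and 5.07%, 7.59% and 4.21% in G12873. For them the groups overlapped, because MIDAS replicate 2 fell within the range of G12873. Replicate 2 is the library in which the 9 co-varying genes took 53.42% of the counts, and their part in its TPM shares was not tested.

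The largest differences among genes detected in both accessions came from 2 identifiers on chromosome 11 and 2 on chromosome 4, taking the chromosome from the identifier. Phvul.011G204700 stood at 1860, 1310 and 1910 CPM in the MIDAS libraries and at 3.47, 1.66 and 1.56 CPM in those of G12873. Every MIDAS library thus lay far above every G12873 library. The log2 difference was 9.58 (SE 1.61), with an adjusted p of 4.82e-05 in edgeR's test. ICA Bunsi libraries held 19.9, 224 and 7.38 CPM and SXB405 libraries 14.7, 7.63 and 10.1 CPM at R8, between the levels of the compared accessions.

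Phvul.011G209600 had 1650, 1520 and 1280 CPM in MIDAS, and G12873 held 5.66, 2.34 and 6.54 CPM (log2 difference 8.27, SE 1.14, edgeR adjusted p = 3.62e-06). At R7 the order was the other way round in every library, with MIDAS at 202, 144 and 99.3 CPM and G12873 at 654, 768 and 530 CPM. That earlier difference of -2.13 did not pass the test (adjusted p = 0.0559), while the change in the difference from R7 to R8 did, at 10.4 (SE 1.41, adjusted p = 1.79e-05). ICA Bunsi and SXB405 were also higher at R8 than at R7 in 5 of their 6 R8 libraries, and SXB405 replicate 2 was the exception at 17.8 CPM.

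In the opposite direction, Phvul.004G158300 had 0.553, 0.955 and 2.82 CPM in the MIDAS libraries and 1570, 694 and 878 CPM in those of G12873, a log2 difference of -9.41 (SE 0.76, adjusted p = 1.46e-09 with edgeR). Phvul.004G158200 stood at 0.798, 1.91 and 5.15 CPM, against 1000, 516 and 565 CPM, a log2 difference of -7.99 (SE 0.94, adjusted p = 3.43e-07). In neither gene did the groups overlap, and MIDAS replicate 3 was the highest of its group in both, so that without it the differences were -10.57 and -9.19. These identifiers are near each other in number, as is Phvul.004G158000, which was called in the same direction and is described with the abundant genes. Near-identical neighbours can share estimated counts, so the division of counts among such genes is uncertain. For Phvul.004G158300 the other accessions split as well, with 0, 0.0816 and 0 CPM in ICA Bunsi and 146, 536 and 625 CPM in SXB405.

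Among the most abundant called genes, Phvul.011G204600 held 17900, 13100 and 14400 CPM in the MIDAS libraries, against 5980, 4680 and 4420 CPM in G12873. The groups did not overlap in CPM, and the log2 difference was 1.59 (SE 0.39, adjusted p = 0.00154, edgeR). In TPM, scaled to the same sum in every library but without the TMM step, the values were 54600, 9460 and 46500 in MIDAS and 11500, 17300 and 7910 in G12873. On that scale MIDAS replicate 2 fell within the G12873 range. Phvul.002G196400 was the other abundant gene called higher, at 7310, 6010 and 5310 CPM against 2410, 2220 and 1950 CPM (log2 difference 1.5, SE 0.51, adjusted p = 0.0199). In TPM its groups overlapped too, at 9230, 1820 and 7100 in MIDAS and 1990, 3600 and 1510 in G12873. Its call was lost without MIDAS replicate 1 (adjusted p = 0.0601), G12873 replicate 2 (0.0551) or G12873 replicate 3 (0.0633), with differences of 1.37 to 1.51.

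Phvul.001G067300 was lower in MIDAS, with 3680, 5480 and 4630 CPM against 22400, 15900 and 14200 CPM in G12873 (log2 difference -1.93, SE 0.42, adjusted p = 5.74e-04). In MIDAS it was highest at R8, with means of 694 CPM at R7 and 833 CPM at R9, while G12873 reached 29400 CPM at R9. The difference was already -2.92 at R7 and reached -5.14 at R9, so it was smallest at R8. The change between R8 and R9 passed edgeR's test at 3.21 (SE 0.59, adjusted p = 2.37e-04). That between R7 and R8 did not (0.99, adjusted p = 0.207). Phvul.004G158000 held 34.3, 53.0 and 134 CPM in the MIDAS libraries, where G12873 held 15800, 6620 and 8940 CPM, and differed by -7.14 (SE 0.79, adjusted p = 5.2e-08), or -7.9 without MIDAS replicate 3. At R8 its libraries had 1.04, 0.163 and 1.01 CPM in ICA Bunsi and 7780, 18300 and 16900 CPM in SXB405, so MIDAS and ICA Bunsi were low while G12873 and SXB405 were high.

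**Figure D2:**
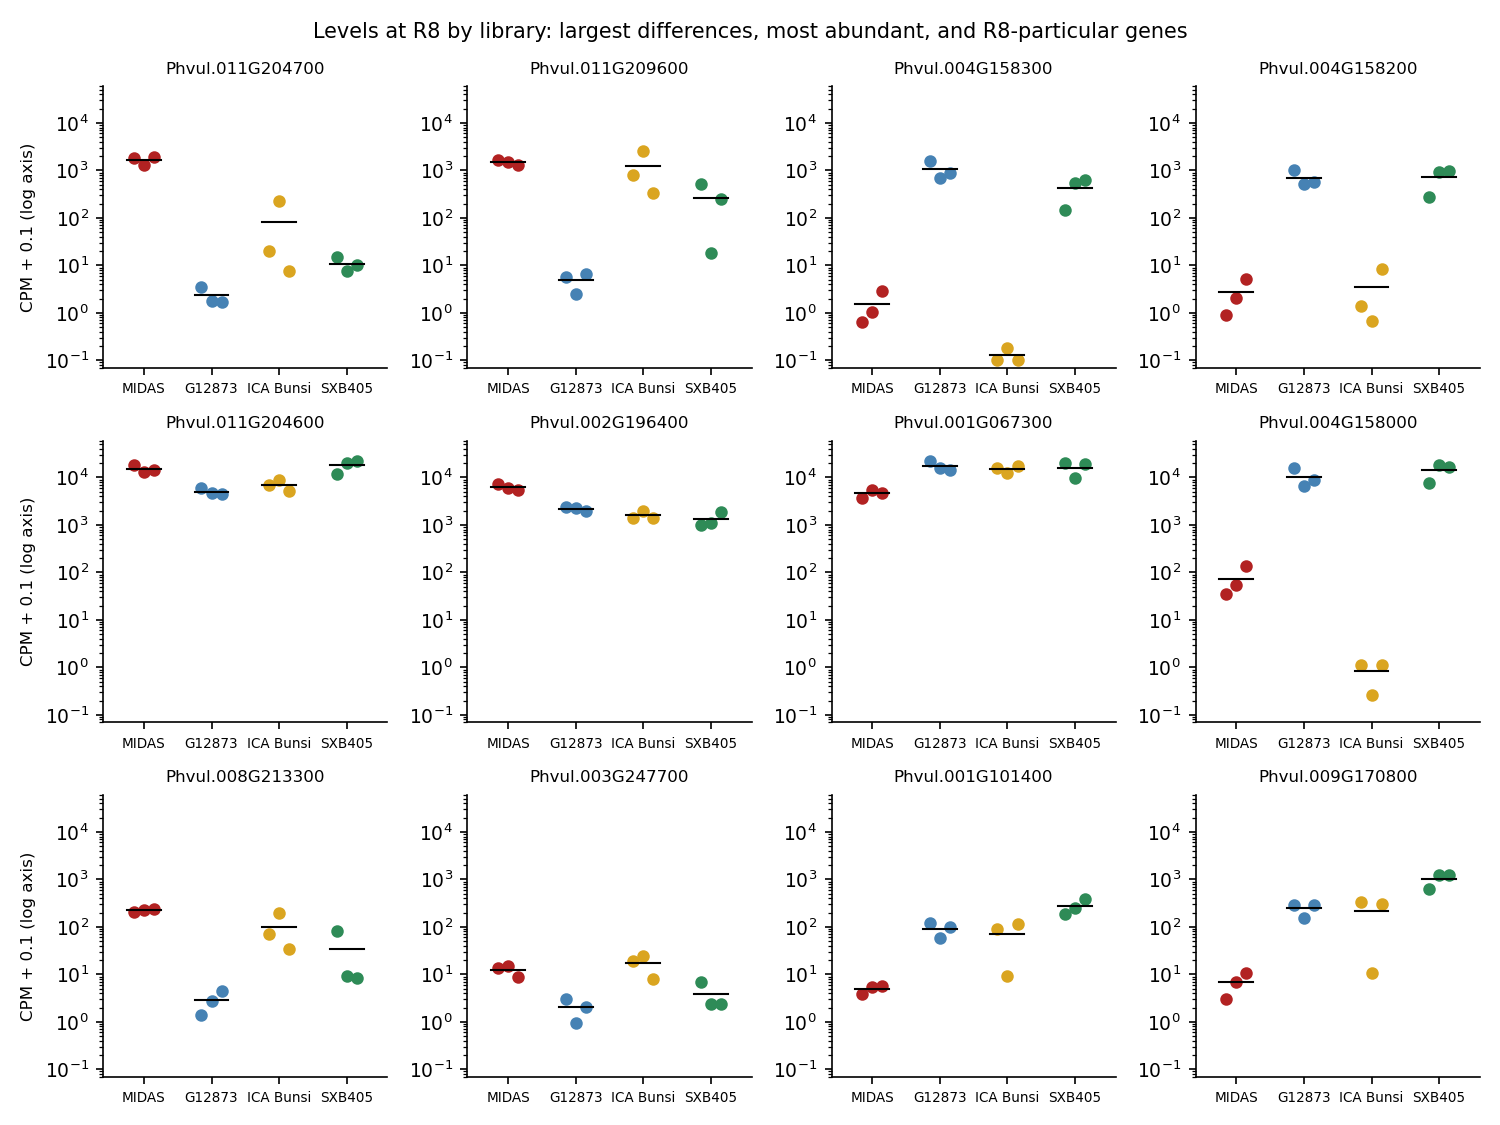
Each panel shows 1 gene at R8, with every library as a point, the mean as a line, the 4 accessions along the horizontal axis and CPM + 0.1 on a logarithmic vertical axis. The top row holds the genes with the largest differences, the middle row the most abundant called genes and the bottom row genes whose difference at R8 departed from both R7 and R9; Phvul.004G158000 reaches at most 134 CPM in MIDAS and ICA Bunsi and at least 6620 CPM in G12873 and SXB405.

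Some genes were detected in only 1 accession at R8. Here no count means an estimated count of 0 before rounding, while the 143 and 167 genes given earlier were taken after rounding. Among genes averaging 5 CPM or more in the other accession, 19 had no count in the 3 G12873 libraries, where 3 counts over the group correspond to 0.0869 CPM, and 12 had none in the 3 MIDAS libraries (0.0807 CPM). Across all 9 libraries of the accession, at any stage, 3 of the 19 had no count in G12873 and 6 of the 12 had none in MIDAS. All of these genes were among the calls at R8, as their selection by level implies.

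Phvul.011G209800 was the most abundant of those without counts in G12873, at 25, 27.2 and 33.5 CPM in MIDAS, at least 329-fold higher. Phvul.011G111600 followed at 16.9, 16.2 and 15.7 CPM, at least 188-fold higher. Both were higher still in MIDAS at R7, with means of 64.6 ± 21.1 and 25.8 ± 3.72 CPM (SD, n = 3), and neither had over 2 CPM in ICA Bunsi at any stage. Without counts in any MIDAS library, Phvul.010G129700 had 39.3, 15.9 and 64.7 CPM in G12873, so MIDAS was at least 495-fold lower. Phvul.010G135101, also without counts in MIDAS, had 30.6, 24.9 and 42.1 CPM in G12873, a bound of 403-fold. At R8 it had at most 0.923 CPM in ICA Bunsi and 2.0, 2.8 and 229 CPM in SXB405, where 1 library decided the mean.

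To ask which differences persisted, the R8 calls were set beside the same comparison in the separate libraries of R7 and R9. The R7 libraries gave 3307 higher genes (15.8%) and 2657 lower genes (12.7%), 28.4% in all, and those of R9 gave 2180 (10.4%) and 1813 (8.65%), 19.0% in all. Of the genes higher at R8, 1163 were also higher at R7, 35.5% of the R8 list and 35.2% of the R7 list, and 140 (4.28%) were lower at R7. Of the genes lower at R8, 760 were lower at R7, 27.4% of the R8 list and 28.6% of the R7 list, and 184 (6.64%) were higher. Most R8 calls were thus not called in the same direction at R7. Without the 8 libraries over 50%, which leaves only replicate 3 of G12873 at R7 and assumes that it varies like the other groups, the matching genes numbered 885 higher (8.97% of all genes were called higher at R7) and 712 lower (9.71%).

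At R9, 777 of the genes higher at R8 were higher again, 23.7% of the R8 list and 35.6% of the R9 list, and 117 (3.57%) were lower. Lower genes overlapped more by share, with 868 lower at both stages, 31.3% of the R8 list and 47.9% of the R9 list, though 261 (9.41%) were higher at R9. The difference between these shares was not tested. The same direction at all 3 stages was found for 411 higher and 432 lower genes. Together these were 843 of the 20966 genes tested, and 13.9% of the R8 calls. The median difference of the genes higher at R8 was 0.93 at R7 and 0.56 at R9, and that of the lower genes was -0.48 and -0.63. Over all genes tested these medians were 0.15 at R7 and -0.04 at R9. The genes were chosen for their difference at R8, so smaller medians at the other stages follow in part from that choice. How far differences lasted is therefore not read from the medians.

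Among the lasting differences, Phvul.006G201100 held 117, 94.1 and 118 CPM in the MIDAS libraries of R8 and 1.62, 9.12 and 7.26 CPM in those of G12873. Its groups were separate at each stage, and the log2 differences were 3.85, 4.16 and 3.54 at R7, R8 and R9 (SE 0.69, 0.66 and 0.66). Phvul.001G091000 had 353, 187 and 181 CPM against 3.35, 24.8 and 0.83 CPM at R8, with differences of 4.72, 4.59 and 3.69 at R7, R8 and R9. G12873 replicate 2 was the highest library of its group, and without it the R8 difference was 6.86, and limma-voom gave 5.44 on all libraries. The R9 call of this gene was lost without the libraries over 50% (1.85, adjusted p = 0.157, edgeR) and with limma-voom (2.5, adjusted p = 0.0885).

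Phvul.010G135800 was lower throughout, with 3.99, 4.3 and 3.17 CPM in MIDAS at R8, where G12873 had 365, 112 and 143 CPM. The log2 differences were -5.93, -5.77 and -4.28 at R7, R8 and R9 (SE 0.66, 0.62 and 0.57), and that at R8 was -5.08 without G12873 replicate 1. Phvul.002G022200, at 6.14, 6.93 and 8.57 CPM against 374, 254 and 330 CPM at R8, differed by -5.91, -5.46 and -6.50. In neither gene did the R8 difference depart from that at R7 or R9 past the test, with adjusted p of 0.0884 or more in edgeR. ICA Bunsi and SXB405 lay between the compared accessions for both genes at R8, at 12.2 to 56.8 CPM for the former and 84.5 to 125 CPM for the latter.

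Whether a difference at R8 departed from that at another stage was tested directly. Against R7, 5469 genes (26.1%) passed, with a change upwards in 12.8% of all genes and downwards in 13.3%. The G12873 libraries of R7 were uneven in depth, which limits this count. Outside the 9 co-varying genes, replicates 1 and 2 held only 285822 and 697176 counts, and replicate 3 held 9980109. Against R9, 4106 genes (19.6%) passed, 9.47% upwards and 10.1% downwards. These tests share the R8 libraries with the comparison itself, so the R8 calls that also passed are counted without reading the share as a result. Past both tests in the direction of their R8 call were 690 of the higher and 646 of the lower genes.

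At R8, Phvul.008G213300 stood at 207, 223 and 243 CPM in MIDAS but 1.27, 2.59 and 4.46 CPM in G12873, giving a log2 difference of 6.33 (SE 0.93, adjusted p = 8.25e-06). In MIDAS it peaked at R8, between 16.9 ± 2.15 CPM at R7 and 7.0 ± 1.27 CPM at R9 (SD, n = 3). In G12873 it was highest at R7, with 116, 58.6 and 25.3 CPM, where replicates 1 and 2 rest on 35 and 58 counts. The R7 difference of -1.79 did not pass the test (adjusted p = 0.0885, edgeR). The R8 difference exceeded that at R7 by 8.12 (SE 1.21) and that at R9 by 5.84 (SE 1.20). Phvul.003G247700 had lower levels, with 13.6, 15 and 8.57 CPM in MIDAS against 3.0, 0.862 and 1.97 CPM at R8. The order was reversed at R7, with 6.48, 4.69 and 4.29 CPM against 120, 61.7 and 62.3 CPM. For this gene the R7 difference of -3.9 passed the test (adjusted p = 1.33e-06, edgeR). Its R8 difference was 2.71 (SE 0.51), which exceeded that at R7 by 6.61 and that at R9 by 4.67.

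Among the lower genes, Phvul.009G170800 held 2.95, 6.69 and 10.4 CPM in the MIDAS libraries of R8, and 290, 152 and 295 CPM in those of G12873 (log2 difference -5.20, SE 1.11, edgeR adjusted p = 5.78e-04). At R9 MIDAS held 1920, 2390 and 2430 CPM, above the 542, 393 and 340 CPM of G12873. That R9 difference of 2.4 did not pass the test (adjusted p = 0.0699, edgeR). The R7 libraries of this gene in MIDAS were uneven, at 5.62, 2.71 and 178 CPM. The R8 difference departed from that at R7 by -9.0 and from that at R9 by -7.61 on the log2 scale. Phvul.001G101400 had the accessions in the same order at R8 and R9. It held 3.75, 5.25 and 5.51 CPM in MIDAS against 119, 57.8 and 98 CPM at R8. The R9 values were 1400, 996 and 1370 CPM against 114, 124 and 88.8 CPM. Here the R9 difference of 3.52 passed the test (adjusted p = 0.00375, edgeR). MIDAS R7 replicate 3 was again the high library of its group, at 94.7 CPM against 5.5 and 1.85 CPM. The R8 difference of -4.25 (SE 0.92, adjusted p = 6.62e-04) departed by -7.66 from that at R7 and by -7.78 from that at R9.

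**Figure D3:**
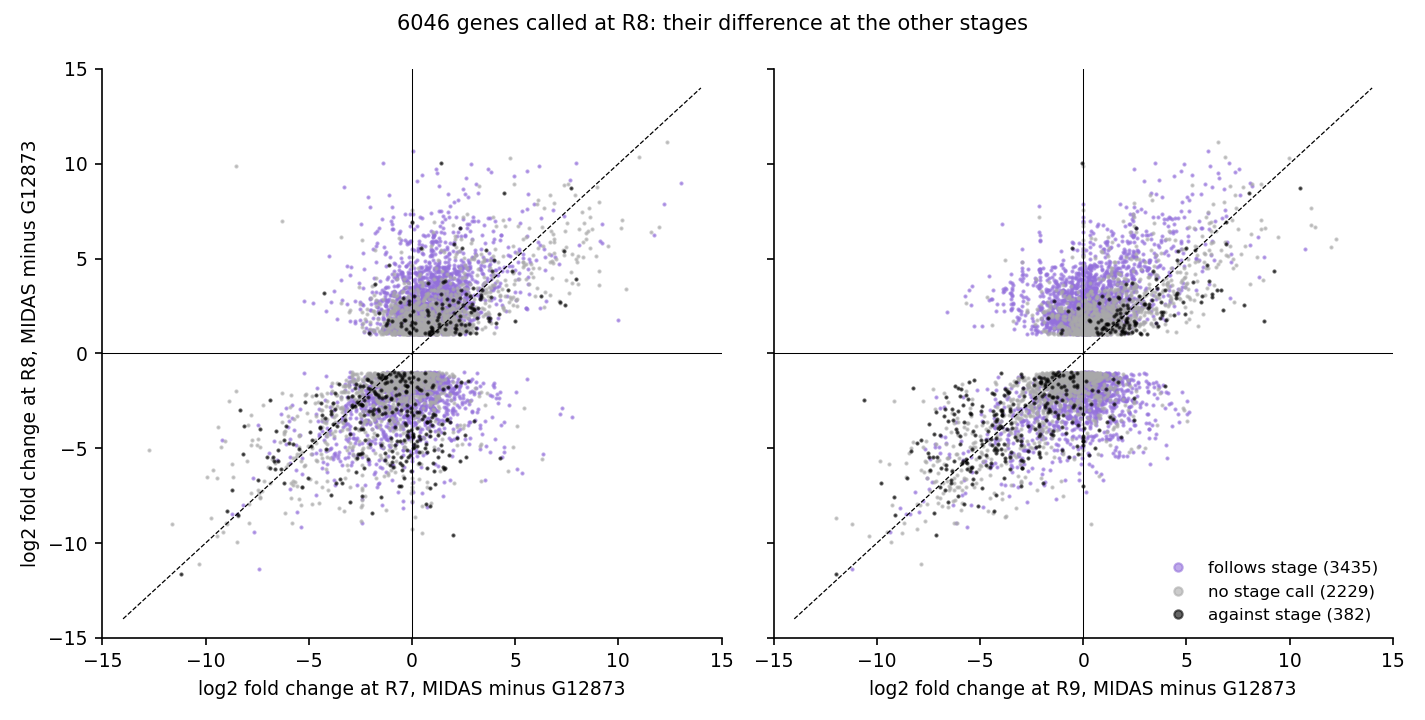
Each point is 1 of the 6046 genes called at R8, with its log2 difference at R8 on the vertical axis and at R7 (left) or R9 (right) on the horizontal axis; the dashed line marks equal differences. Colours give the change from R7 to R9 in ICA Bunsi and SXB405: 3435 genes follow stage, 2229 have no stage call and 382 go against it. Many points lie near 0 on the horizontal axis, away from the dashed line.

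To see how the R8 calls relate to stage, they were set beside the change from R7 to R9 in ICA Bunsi and SXB405, libraries that the comparison does not use. Averaged over those 2 accessions, 3473 genes (16.6%) rose and 4050 (19.3%) fell between R7 and R9, 35.9% in all. Of the genes higher in MIDAS at R8, 2008 fell with stage, 61.4% of them and 49.6% of all that fell, and 120 (3.67%) rose. Of the genes lower in MIDAS, 1427 rose with stage, 51.5% of them and 41.1% of all that rose, and 262 (9.45%) fell. For 3435 of the 6046 called genes, MIDAS thus lay on the side of the earlier stage and G12873 on that of the later stage. The direction of stage was the same within the compared accessions, from their R7 and R9 libraries. In MIDAS, where 39.8% of all genes changed from R7 to R9, 60.5% of the higher genes fell (21.8% of all genes) and 42.6% of the lower genes rose (18.0%). In G12873, where 30.0% of all genes changed, 50.1% of the higher genes fell (15.7%) and 40.6% of the lower genes rose (14.4%). Without the 8 libraries over 50%, 59.9% of the higher genes fell and 48.1% of the lower genes rose in ICA Bunsi and SXB405, where 18.8% and 15.5% of all genes did.

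**Figure D4:**
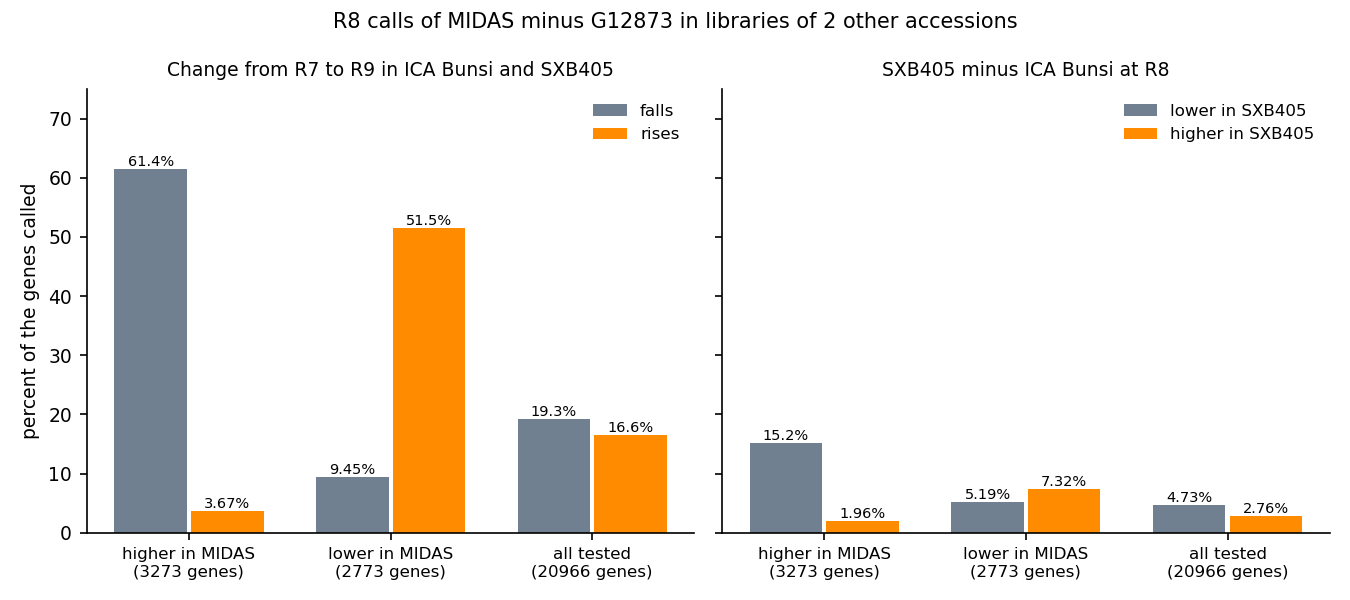
Bars give the percent of the genes higher (3273) or lower (2773) in MIDAS at R8, and of all 20966 genes tested, that were called in libraries of ICA Bunsi and SXB405. On the left, 61.4% of the higher genes fell and 51.5% of the lower genes rose from R7 to R9, against 19.3% and 16.6% of all genes; on the right, 15.2% of the higher genes were lower in SXB405 than in ICA Bunsi at R8, against 4.73% of all genes, which became 3.99% against 2.07% without ICA Bunsi replicate 2.

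Genes of this kind were ranked by the smaller of the R8 difference and the stage change, leaving out those already described. Phvul.011G182700 came first among the higher genes, with 744, 702 and 643 CPM in MIDAS at R8, where G12873 had 5.08, 2.46 and 3.94 CPM (log2 difference 7.52, SE 1.31, edgeR adjusted p = 6.97e-05). At R7 G12873 had also been high, at 173, 319 and 214 CPM, and ICA Bunsi and SXB405 fell by 7.32 between R7 and R9. Phvul.002G201600 had 124, 88.6 and 160 CPM against 3.23, 1.54 and 3.73 CPM (5.48, SE 1.12), and fell by 5.98 with stage. The G12873 libraries of R7 held 49.8, 58.6 and 82 CPM, so both genes were expressed in each accession and were low in G12873 from R8 onwards.

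Phvul.011G044000 ran the other way, with 14, 12.7 and 9.1 CPM in MIDAS at R8, where G12873 had 776, 1590 and 1230 CPM (log2 difference -6.65, SE 0.80, adjusted p = 3.48e-07). It rose by 5.69 from R7 to R9 in ICA Bunsi and SXB405, yet MIDAS had reached only 3.51, 48.7 and 19 CPM at R9. Phvul.011G077300 had 1.54, 8.12 and 2.88 CPM against 181, 93.6 and 193 CPM (-5.40, SE 0.75; -6.11 without MIDAS replicate 2 and -6.14 without the libraries over 50%) and rose by 5.39 with stage. It too stayed lower in MIDAS at R9, by 3.18 (SE 0.67, adjusted p = 8.52e-04). Both genes were already called lower at R7, with differences of -3.77 and -2.67 (edgeR adjusted p = 2.5e-04 and 0.00947). They were thus lower at every stage. As they were picked for large values, they do not stand for the other genes that followed stage.

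How often the genes of each stage class kept the R8 direction is given as counts, and differences between the classes were not tested. At R7, 661 of the 2008 higher genes that fell with stage (32.9%) were higher again, against 446 of the 1145 with no stage call (39.0%) and 56 of the 120 that went against stage (46.7%). For the lower genes these shares at R7 were 20.4%, 34.6% and 35.9%. At R9, 293 of the higher genes that fell with stage (14.6%) were higher again, as were 392 with no stage call (34.2%) and 92 of those against stage (76.7%). Of the lower genes, 318 of the 1427 that rose with stage (22.3%) were lower at R9, as were 427 of the 1084 with no stage call (39.4%) and 123 of the 262 that went against it (46.9%). A further 222 of the genes that rose with stage (15.6%) were higher in MIDAS at R9. The direction at all 3 stages was shared by 6.67% of the higher genes that fell with stage, 19.8% of those with no stage call and 41.7% of those against stage. For the lower genes these shares were 10.6%, 20.2% and 23.7%. Among all R8 calls they were 12.6% of the higher and 15.6% of the lower genes. Among the 690 higher and 646 lower genes whose R8 difference departed from both other stages, 552 and 540 followed stage, where 61.4% of all higher and 51.5% of all lower calls did.

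At the same stage, SXB405 and ICA Bunsi differed in 7.48% of all genes, 578 higher (2.76%) and 991 lower (4.73%) in SXB405. Genes called in both comparisons numbered 908. In 700 of them (77.1%) SXB405 differed from ICA Bunsi as G12873 differed from MIDAS, and in 208 (22.9%) it was the other way. This result rests on 1 library. Without ICA Bunsi R8 replicate 2, whose values stood apart from replicates 1 and 3, 412 genes were shared. The first pattern then held 133 higher and 92 lower genes, and the second 58 and 129. In that fit 1.46% of all genes were higher and 2.07% lower in SXB405.

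In the first pattern, Phvul.008G261500 had 23.9, 32.0 and 22.8 CPM in MIDAS but 1.62, 2.22 and 4.15 CPM in G12873 (log2 difference 3.29, SE 0.62, adjusted p = 1.42e-04). ICA Bunsi had 46.2, 22.8 and 42.9 CPM and SXB405 8.0, 0.98 and 1.62 CPM, a difference of -3.44 (SE 0.61). Phvul.003G052000 had 64.0, 69.7 and 82.5 CPM against 0.462, 0.801 and 2.28 CPM (5.94, SE 1.14; 6.73 without G12873 replicate 3). Its ICA Bunsi libraries held 13.4, 93.4 and 4.53 CPM, and without replicate 2 the difference from SXB405 was -2.0 (adjusted p = 0.256, edgeR), no longer a call.

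Phvul.010G144300 had 350, 576 and 471 CPM in the MIDAS libraries and 12600, 985 and 7910 CPM in those of G12873 (log2 difference -3.94, SE 0.89, adjusted p = 8.25e-04). G12873 replicate 2 was far below the other libraries of its group but above all of MIDAS, and without replicate 1 the difference was -3.26. SXB405 had 9510, 30700 and 26900 CPM and ICA Bunsi 33.8 to 199 CPM, a difference of 7.65 (SE 1.05). Phvul.010G135151 had 0.491, 0.716 and 1.8 CPM in MIDAS but 20.1, 23.0 and 44.7 CPM in G12873 (-4.76, SE 1.25; -5.69 without MIDAS replicate 3), and 6.76, 42.2 and 698 CPM in SXB405 against 2.92, 1.39 and 19.5 CPM in ICA Bunsi. These last groups overlapped, and the difference of 4.96 lost its call without ICA Bunsi replicate 2 (adjusted p = 0.057).

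In the second pattern, Phvul.004G082600 had 346, 237 and 233 CPM in MIDAS but 36.3, 25.8 and 42.6 CPM in G12873 (log2 difference 2.96, SE 0.40, adjusted p = 1.27e-06). SXB405 lay above ICA Bunsi by 2.33 (SE 0.40), with 92.9, 57.2 and 57 CPM against 10.8, 19.2 and 11.1 CPM. Phvul.005G034666 had 19.5, 18.6 and 31.5 CPM against 5.66, 5.42 and 3.42 CPM (2.27, SE 0.32), and SXB405 exceeded ICA Bunsi by 2.49. In both genes the 4 groups did not overlap within either pair. Phvul.011G014301 was lower in MIDAS at 5.1, 2.87 and 3.17 CPM against 10.6, 48.7 and 34.9 CPM (-3.04, SE 0.47) and lower in SXB405 than in ICA Bunsi (-3.78, SE 0.51). Phvul.004G013500, at 17.4, 16.0 and 13.8 CPM against 277, 41.1 and 47.0 CPM, differed by -2.95 (SE 0.84, edgeR adjusted p = 0.0069), but by -1.48 (adjusted p = 0.144) without G12873 replicate 1.

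A further 5 identifiers were included as candidates recalled from published work on common bean, a link that the files do not document, and 3 of them are plotted by stage. The deposited files and the reference table give none of the 5 a name, so they are reported by identifier with no role assigned. Phvul.005G157600 stood at 24.9, 23.2 and 18.7 CPM in MIDAS at R8 but at 0.578, 0.616 and 0.415 CPM in G12873. The groups were far apart, with a log2 difference of 5.32 (SE 0.51, adjusted p = 4.39e-09, edgeR). At R7 the order was reversed, with MIDAS at 12.3, 12.5 and 9.66 CPM and G12873 at 49.8, 66.7 and 59.2 CPM (-2.37, SE 0.41), although the first G12873 value rests on 15 counts. Between R7 and R8 the G12873 libraries went from at least 49.8 CPM to at most 0.616 CPM while no MIDAS library was under 9.66 CPM, and the change in the difference was 7.69 (SE 0.66, adjusted p = 1e-08). At R9 both were low, at 2.58 ± 1.26 and 0.591 ± 0.254 CPM (SD, n = 3), and the difference of 2.0 lost its call without the libraries over 50% (1.69, adjusted p = 0.0682). ICA Bunsi and SXB405 stayed at or under 3.02 CPM in every library.

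Phvul.003G252100 was higher in MIDAS at each stage. Its R8 libraries held 82.2, 75.9 and 89.7 CPM in MIDAS but 18.8, 12.1 and 14.8 CPM in G12873, a log2 difference of 2.44 (SE 0.34, adjusted p = 1.83e-06). The difference was 2.79 at R7 and 3.19 at R9, and no change between stages passed the test (adjusted p = 0.666 and 0.273). ICA Bunsi and SXB405 were as low as G12873 at R8, at 6.02 to 15.5 CPM.

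Phvul.002G271000 was scarce at R8, with 2.46, 1.91 and 1.14 CPM in MIDAS but 0.924, 0.739 and 0.311 CPM in G12873, from 40, 8 and 19 counts against 8, 12 and 3. Its log2 difference of 1.45 (SE 0.58) was just past the test (adjusted p = 0.046, edgeR). The call was lost with DESeq2 (adjusted p = 0.063), without the low-count filter (0.0507), with a replicate block (0.0588) and without any of 4 single libraries (0.072 to 0.209). At R9 MIDAS held 17.1, 13.6 and 17.2 CPM and G12873 0.146, 0.496 and 0.297 CPM, so the difference at R9 was 5.54 (SE 0.65) and the R8 difference departed from it by -4.09 (SE 0.88, adjusted p = 0.00114).

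The remaining candidates gave 1 call. Phvul.006G018800 had 0.184, 0.239 and 0.24 CPM in MIDAS but 6.24, 3.94 and 1.24 CPM in G12873, from 3, 1 and 4 counts against 54, 64 and 12 (log2 difference -4.06, SE 0.75, edgeR adjusted p = 7.47e-05). Phvul.007G171333 had 2.7, 2.39 and 3.53 CPM against 6.47, 6.96 and 4.67 CPM. Its groups did not overlap, but the difference of -1.04 (SE 0.49) did not pass the test over all genes (adjusted p = 0.0921).

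**Figure D5:**
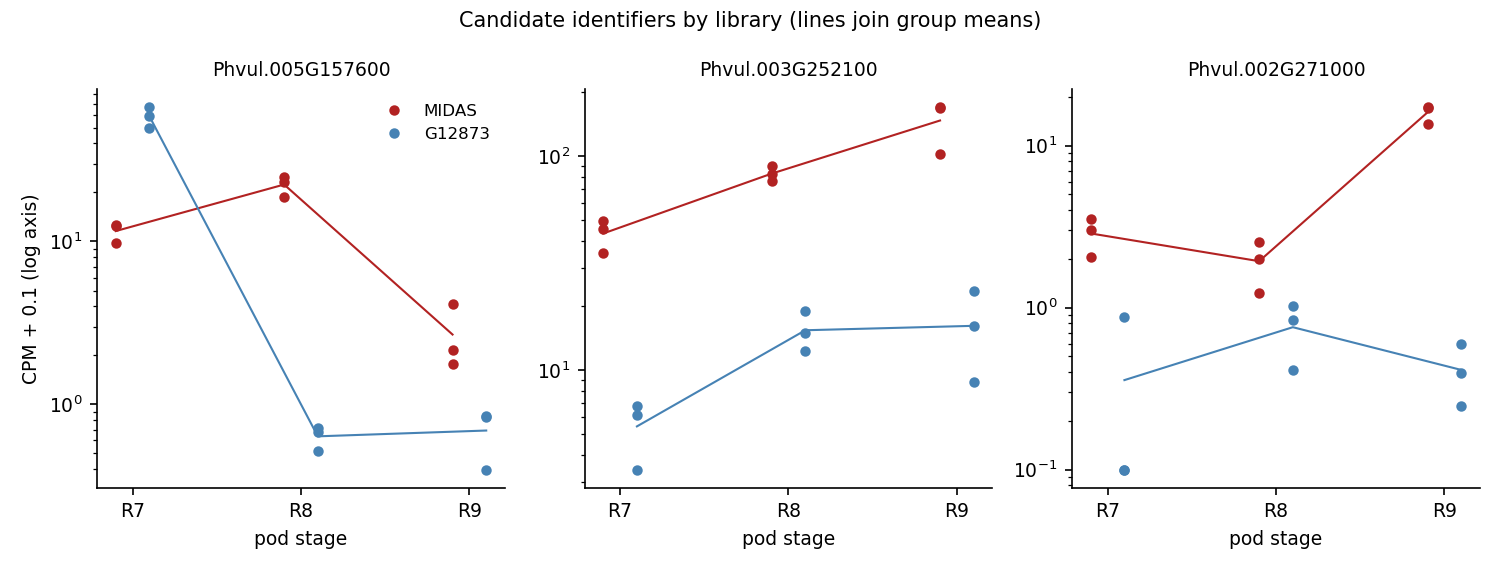
CPM + 0.1 on logarithmic axes by pod stage for 3 candidate identifiers, with each library as a point and lines joining the means of MIDAS (red) and G12873 (blue). Phvul.005G157600 crosses between R7 and R8, Phvul.003G252100 is higher in MIDAS at every stage, and Phvul.002G271000 separates most at R9.

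The called genes were spread over the whole genome. By the chromosome number in the identifier, the share of tested genes called at R8 ran from 25.8% on chromosome 9 to 31.5% on chromosome 5, and was 33.9% among 304 genes on unplaced sequences. In 409 windows of 50 tested genes with consecutive identifiers, the number called ranged from 5 to 25 with a median of 14. The highest count lay between Phvul.011G131300 and Phvul.011G139100, where 19 genes were higher and 6 lower in MIDAS. The next, from Phvul.011G196700 to Phvul.011G202500, leaned the other way with 6 higher and 18 lower genes. Lasting differences had a median of 2 per window and reached 9 in a window from Phvul.010G140000 to Phvul.010G145300 and in another from Phvul.008G024100 to Phvul.008G029600. These windows were picked for their counts, so the values are descriptions. The 5.4% of chromosome 10 genes and 5.11% of chromosome 11 genes with lasting differences were the highest shares, and the 3.13% of chromosome 1 the lowest.

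Few genes were called for a difference in which of their transcripts was present. This test is not that of gene level and may not detect differences as readily, so the numbers of calls are not compared. Of 4268 genes with several transcripts, 20 (0.469%) differed in transcript shares at R8, with an adjusted p under 0.05 in edgeR's diffSpliceDGE and at least 20 percentage points in the main transcript, the one with the highest mean share over the 6 libraries. The main transcript took more of the gene in MIDAS in 10 and in G12873 in the other 10. A gene-level call accompanied 8 of the 20 (40.0%), where 23.3% of all 4268 genes had one. Shares come from estimated counts, in which reads common to several transcripts are divided by the quantification, which adds to their uncertainty. With 1 of the 6 libraries left out 9 to 14 genes were called, with each of the 6 lowering the count, and a fit on the 6 samples alone called 79.

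For Phvul.002G291500, transcript 1 held 99.9%, 100% and 100% of the gene in MIDAS and 5.45%, 7.82% and 4.6% in G12873, where transcript 2 made up the rest (adjusted p = 0.0266). In Phvul.008G225100, transcript 3 took 90.5%, 99.3% and 89% in MIDAS and none in G12873, where transcript 1 held 84.4%, 73.8% and 100% (adjusted p = 0.00297). In both genes most estimated counts thus lay on different transcripts in the 2 accessions, without a gene-level call. The total of Phvul.002G291500 missed a call only by the 2-fold minimum (log2 difference -0.91, edgeR adjusted p = 0.00181). Whether sequence differences between the accessions moved reads from one transcript to another was not tested. Phvul.002G074200 was similar, with transcript 2 at 100% in each MIDAS library and 24.8%, 24.2% and 17.4% in G12873 (adjusted p = 0.0244). Its total also fell short of 2-fold (log2 difference 0.94, edgeR adjusted p = 0.00445). That total gained a call without MIDAS replicate 2 (1.03) or G12873 replicate 3 (1.13). In Phvul.007G009900, transcript 2 held 38.3%, 17.8% and 35.4% in MIDAS and 97.9%, 96.3% and 100% in G12873 (adjusted p = 0.0067). With 1 library left out the adjusted p rose to at most 0.206, 0.0504, 0.206 and 0.0913 in the order of description. None of the 4 kept its call in every such fit, and that of Phvul.002G074200 was also lost with a replicate block (0.0509) and without the libraries over 50% (0.0762).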

How the data were processed

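Pod RNA of 36 libraries was sequenced as 75-base single reads from TruSeq libraries, per the labels' protocols. The authors deposited, for each library, estimated counts without normalization and TPM values of 36995 transcripts, in the columns of a kallisto table. The submitters' processing notes list kallisto, limma and edgeR and no version. Index, build, annotation and strand setting were not given in the sources used, so overlapping, antisense and near-identical genes are uncertain. The TPM values, scaled by the authors for transcript length to the same sum per library, entered no test.

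Estimated counts were summed per gene and rounded. In R 4.3.3, edgeR 4.0.16 scaled libraries by TMM, filtered with filterByExpr (minimum count 10, minimum total 15; 6467 genes removed) and made a robust quasi-likelihood fit over 36 libraries in 12 groups, which share an estimate of the spread. Differences between contrasts were tested in the same fit, and p-values were adjusted over all genes tested (Benjamini-Hochberg). SE values derive from the F statistic. CPM use TMM-scaled library sizes. Transcript shares were tested with diffSpliceDGE and Simes adjustment per gene. The fits were tested on simulated data. Python 3.11.15 with pandas 2.3.3 read the files and matplotlib 3.10.9 drew the plots.

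The members and lists were chosen with earlier results of these data known. At most 2 identifiers up and 2 down were named for each of these rules: largest difference with at least 1 CPM in both accessions and separate groups; highest TPM; called alike at all 3 stages; departing from both other stages; following stage; shared with SXB405 minus ICA Bunsi, for each sign; no count in 1 accession; and the 4 largest transcript shares without a gene-level call. To these come 5 candidates. Identifiers of windows and of the co-varying set were chosen after their values were seen.

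The 9 co-varying genes were those of the 50 most abundant with a Spearman correlation over 0.9 with the first. None of the 27433 identifiers matched the 34165 genes of the reference table (0 matches), so no names, marker lists or sequences are given. No pair of libraries within MIDAS or within G12873 at R8 agreed within sampling noise. Same-numbered libraries of the 2 accessions did not deviate together at R8 (correlations of -0.227, -0.371 and -0.038), so no pairing was used. Alternatives were RLE size factors, DESeq2 1.42.0, limma-voom from limma 3.58.1, leaving out the filter, the minimum fold or the 50 most abundant genes, transcripts in place of genes, the 6 samples alone, a replicate block, the 8 libraries over 50% left out and each of the 6 R8 libraries of MIDAS and G12873 left out in turn. A fit without ICA Bunsi R8 replicate 2 was chosen after seeing the data.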

Additional observations from a re-analysis of the deposited data

Results flagged for a closer look

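The difference between MIDAS and G12873 at R8 departed from that at R7 in 5469 genes and from that at R9 in 4106 genes, by the test of the change itself. The larger direction depended on the settings, so no direction is read from these counts. Against R7, 2681 changes were upwards and 2788 downwards, but 3031 and 2646 with DESeq2 and 2412 and 1885 without the 8 libraries over 50%. Against R9, 1986 were upwards and 2120 downwards, but 2285 and 2106 with limma-voom.

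Each of the following genes is listed because its difference changed between stages past that test. On the log2 scale, the R8 difference of Phvul.008G213300 exceeded that at R7 by 8.12 and that at R9 by 5.84. For Phvul.003G247700 the excess was 6.61 and 4.67. The R8 difference of Phvul.001G101400 departed by -7.66 from R7 and by -7.78 from R9, and that of Phvul.009G170800 by -9.0 and -7.61. In the last pair, MIDAS R7 replicate 3 held 94.7 and 178 CPM, far above the other libraries of its group. Among the candidates, Phvul.005G157600 changed by 7.69 from R7 and by 3.32 from R9, and Phvul.002G271000 by -4.09 from R9. Groups of 3 libraries are too small for a test of single outlying libraries.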

How the results depend on the processing

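The number of genes called at R8 stayed within 1.5 times of 6046 in every alternative run, from 4442 with transcripts in place of genes to 7987 without a minimum fold, and from 5173 to 6014 with 1 of the 6 libraries left out; more genes were higher than lower in each. Same-numbered libraries were not paired, and a replicate block gave 5989 calls, 5922 of them among those reported, and in the other counts 809, 5399, 3988, 3403, 834 and 17 in place of 843, 5469, 4106, 3435, 908 and 20. Genes shared with SXB405 minus ICA Bunsi ranged from 755 to 881 with 1 of the 6 compared libraries left out and fell to 412 without ICA Bunsi R8 replicate 2, of which 375 were among those reported. Transcript-share calls rose from 20 to 79 on only the 6 samples, and numbered 9 to 14 with 1 library left out: 10, 12 and 9 without MIDAS replicates 1, 2 and 3, and 14, 10 and 12 without those of G12873. The cause was not tested. Of 610 values of the 41 named genes under alternatives, 596 kept their side of the threshold and direction, 11 lost their call, 3 gained one and 0 turned. Scaling moved the median of all genes by less than 0.1 on the log2 scale. The fewest counts outside the co-varying set at R8, 3126753 in MIDAS replicate 2, limit what can be seen of scarce genes in that library.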
